A study of Drosophila melanogaster with 9 samples.

Results

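The genes described here encode the 2 protein complexes that start autophagy in Drosophila melanogaster: the Atg1 kinase complex (Atg1, Atg13, Atg17 and Atg101) and the class III lipid kinase complex (Pi3K59F, Vps15 and Atg6, with Atg14, Uvrag and Rubicon as partners). They were taken by name from a list of 10 symbols, drawn up with earlier results of these data known, and all 10 were present among the 10242 genes in the files and among the 10139 that passed the filter on low values. Messenger RNA was measured by poly(A) sequencing of the fat body, the insect organ that stores nutrients and secretes serum proteins, in 9 libraries of 3 groups with 3 replicates each. The first group is white prepupae titled LacZ, the second is white prepupae titled mitf, and the third is larvae of the third instar titled e3IL LacZ, an abbreviation that the labels do not spell out. Each library came from the pooled fat bodies of 5 animals, raised at 25 °C after 21 h at 21 °C as eggs. All animals carried 1 copy of Lsp2-GAL4, a driver whose promoter comes from a larval serum protein gene of the fat body, with 1 copy of a UAS transgene. For the larvae the genotype label gives UAS-LacZ, a control transgene for beta-galactosidase of bacteria. For all 6 prepupa samples it gives UAS-Mitf, which encodes the Drosophila counterpart of mammalian TFEB, a transcription factor known for its action on lysosome and autophagy genes.

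The labels of the prepupae conflict, and the measured Mitf transcript goes against the titles. The normalised read count of Mitf was 35204, 68535 and 45647 in the libraries titled LacZ, against 347, 370.4 and 407 in those titled mitf and 378, 385 and 411 in larvae. Mitf was thus 132.9-fold higher in the libraries titled LacZ than in those titled mitf, and the 2 other groups overlapped. The column headings inside the tables give mitf to the libraries titled LacZ and LacZ to those titled mitf. The groups keep the names of their titles below, so every difference written as titled LacZ minus titled mitf sets libraries with high Mitf against libraries with Mitf near the larval level.

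Autophagy begins when the Atg1 kinase, held by its partners Atg13, Atg17 and Atg101, is released from inhibition by the nutrient sensor TOR and is activated, in part by the energy sensor AMPK. The lipid kinase Pi3K59F, the fly Vps34, then makes phosphatidylinositol 3-phosphate, the lipid that recruits later Atg proteins to the forming membrane. Its partners place it: in mammals and yeast Atg14 directs it to the autophagosome. In mammals, Uvrag directs it to endosomes and Rubicon inhibits the Uvrag form. The larval fat body is a classical tissue for developmental autophagy, which the steroid ecdysone sets off towards the end of larval life.

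Summed values were 17195757 to 18187221 per library titled LacZ, 23607147 to 24354238 titled mitf and 22604438 to 27178650 in larvae. Replicates correlated at 0.975 to 0.987 over genes and libraries of different groups at 0.734 to 0.827 (Pearson, log2 scale, across genes, which are not independent replicates). All 10 fat body markers were detected, with 6.6% to 8.8% of the summed values in libraries titled LacZ, 42.9% to 44.5% in those titled mitf and 35.6% to 47.8% in larvae. These sums rest mostly on a few genes, led by Fbp1 in both prepupa groups and by Lsp1beta in larvae, and the markers differed in both directions. Of the 10, 1 was higher and 7 lower in titled LacZ against titled mitf, 1 higher and 8 lower in titled LacZ against larvae, and 3 higher and 6 lower in titled mitf against larvae (median -2.35). The shares of all genes called higher and lower were 41.1% and 31.6%, 46.3% and 32.2%, and 34.8% and 31.7%, in that order. Markers of other organs moved with the groups. The 7 gut markers summed to 5483 to 8592 in libraries titled LacZ, to 18.3 to 30.4 in those titled mitf and to 8.56 to 18.7 in larvae. The sum in libraries titled LacZ was mostly deltaTry (mean 6868). In titled LacZ against titled mitf, 5 gut markers were higher and 1 lower (41.1% and 31.6% of all genes). Amy-p, betaTry and deltaTry were at 0 in all libraries titled mitf, and LManVI and alphaTry in all larvae. The 9 Malpighian tubule markers found of 10 summed to 43842 to 46496 in libraries titled LacZ, 3407 to 3799 in those titled mitf, where CapaR was at 0, and 2249 to 2914 in larvae. Irk3 led the tubule sum in libraries titled LacZ (mean 23696). In titled LacZ against titled mitf, 7 tubule markers were higher and 0 lower (41.1% and 31.6% of all genes). Hemocyte markers (5 of 5) summed to 1852 to 2944 in libraries titled LacZ, 3029 to 3995 in those titled mitf and 611 to 1107 in larvae. The sums were led by crq (means of 1952, 2102 and 463 in these groups). In titled LacZ against titled mitf, 1 hemocyte marker was higher, 1 lower and 3 not called (41.1% of all genes higher, 31.6% lower). Muscle markers (5 of 5) summed to 33.8 to 104 in libraries titled LacZ, 9.19 to 14.0 in those titled mitf and 100.5 to 369 in larvae. In titled LacZ against titled mitf, 2 muscle markers were higher, 0 lower and 3 not called (41.1% of all genes higher, 31.6% lower). The 4 neuron markers found of 5, mostly Syt1, summed to 1995 to 3188 in libraries titled LacZ, 19367 to 20726 in those titled mitf and 2127 to 3383 in larvae. Of these 4, 2 were higher and 1 lower in titled LacZ against titled mitf (median 0.77), where 41.1% of all genes were higher and 31.6% lower. The 7 listed salivary gland markers were not analysed here. The part of other tissues in the differences below was not tested. In bulk tissue, fewer cells of a type and less RNA per cell cannot be told apart.

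The 2 complexes did not move as units. In prepupae titled LacZ compared with prepupae titled mitf, Atg14, Atg101, Vps15 and Atg6 were higher, Rubicon, Atg13, Pi3K59F and Uvrag were lower, and Atg1 and Atg17 did not pass the test. Differences are given as log2(value + 1) and were tested with limma, 1 fit of all 9 libraries, with Benjamini-Hochberg adjustment over all genes tested and a call at an adjusted p under 0.05. Fold changes are ratios of group means. These 8 calls among 10 members are close to the background: 72.7% of all tested genes were called in this comparison, 41.1% higher and 31.6% lower. With a log2 difference of at least 1 besides, 6 members were called, where 55.4% of all genes were. The median difference of the members was 0.12, against 0.22 over all genes tested. The split of 4 higher and 4 lower calls became 5 and 3 when libraries were scaled by their totals and 3 and 4 with trimmed mean scaling. The calls over all genes shifted too, from 4166 higher and 3200 lower of 10139. They became 4950 and 2335 of 10162 with library totals and 3776 and 3633 of 10138 with trimmed mean scaling.

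Against larvae, prepupae of both kinds had mostly higher levels of these transcripts. In prepupae titled LacZ, 7 members exceeded the larval level, Atg13 and Rubicon were lower, and Pi3K59F did not pass the test, where 46.3% of all genes were called higher, 32.2% lower and 78.5% in either direction. In prepupae titled mitf, 7 members exceeded it, no member had a negative difference, and Atg13, Atg101 and Atg14 did not pass the test, where 34.8% of all genes were called higher, 31.7% lower and 66.4% in either direction. With a log2 difference of at least 1 besides, 7 members were called for prepupae titled LacZ and 4 for those titled mitf, where 63.9% and 48.5% of all genes were. The median difference of the members was 1.66 for prepupae titled LacZ and 0.96 for prepupae titled mitf, against 0.50 and 0.08 over all genes tested. The 2 comparisons share the larvae and are not independent. Scaling by library totals moved the median of all genes by 0.41 in titled LacZ minus titled mitf, by 0.45 in titled LacZ minus larvae and by 0.05 in titled mitf minus larvae. Trimmed mean scaling moved it by -0.20, -0.25 and -0.06 in these comparisons, and the differences below move by about as much.

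**Figure D1:**
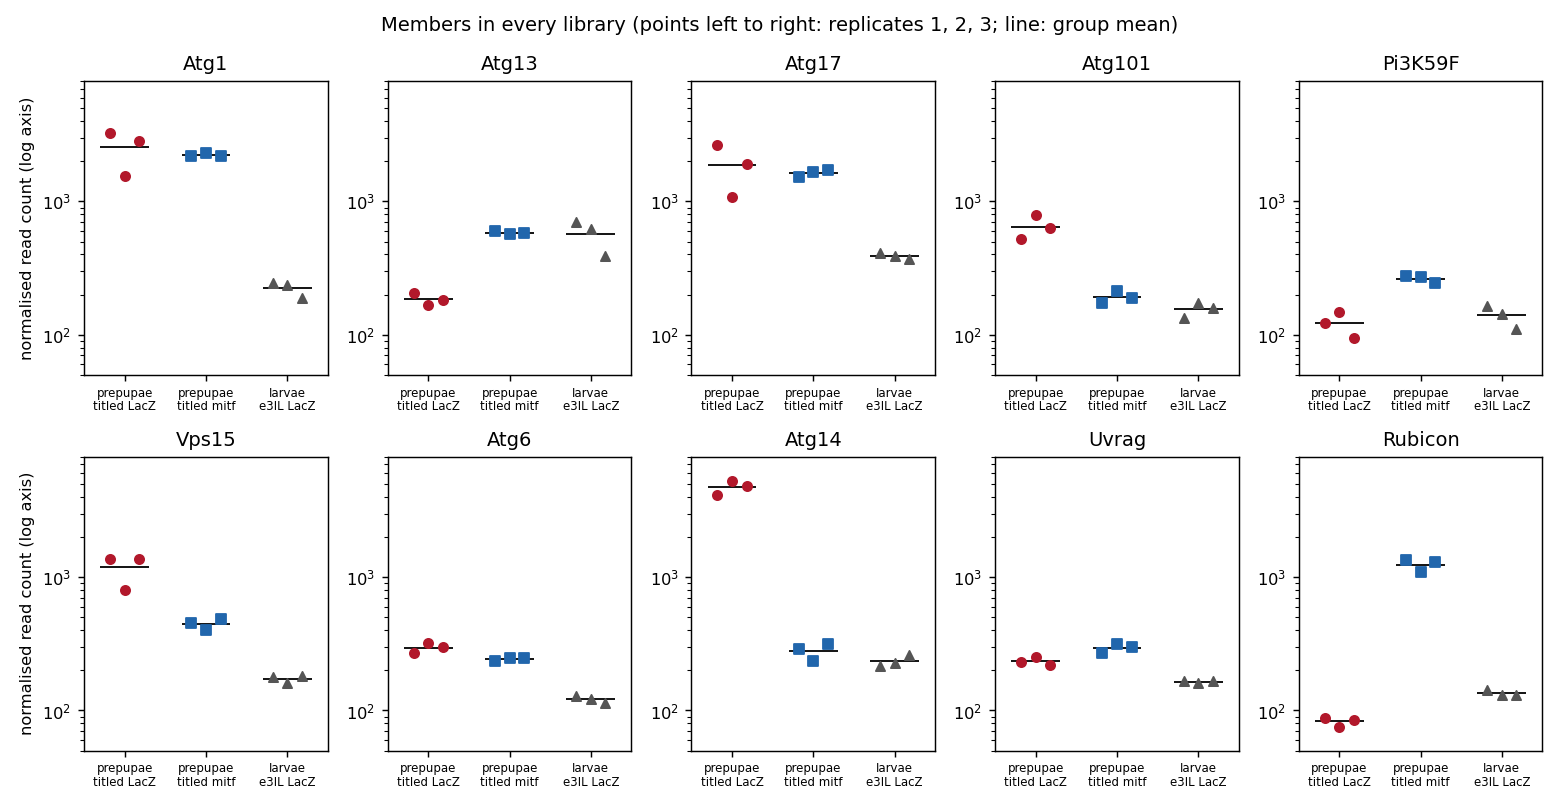
Normalised read count of each of the 10 members in every library (log axis), in prepupae titled LacZ, prepupae titled mitf and larvae, with 1 point per library and a bar at the group mean. The 3 libraries titled LacZ stand apart above all others for Atg14 (4111 to 5216) and those titled mitf for Rubicon (1084 to 1334), while Uvrag stays between 160.4 and 313 in all 9.

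Atg1, the serine/threonine kinase of its complex (3L:12784429-12805116 on BDGP6, as for all positions below, minus strand, FBgn0260945), was far more abundant in prepupae of both kinds than in larvae. Its normalised read count was 3251, 1564 and 2839 in prepupae titled LacZ, 2180.1, 2305 and 2176 in those titled mitf and 243, 237 and 189.9 in larvae. Both prepupa groups lay above every larval library, and the libraries titled LacZ lay on both sides of those titled mitf. The difference to larvae was 3.45 ± 0.23 (SE) for prepupae titled LacZ (11.4-fold, adjusted p = 4.05e-07) and 3.32 ± 0.23 for those titled mitf (9.95-fold, adjusted p = 8.59e-07). Titled LacZ minus titled mitf was 0.13 ± 0.23 (95% interval -0.39 to 0.66, adjusted p = 0.626), and it was -0.075 with trimmed mean scaling and 0.57 with library totals, where it passed the test (adjusted p = 0.0346).

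Atg17, the scaffold of the complex and the fly counterpart of mammalian FIP200 (3R:5669713-5679930, plus strand, FBgn0037363), followed the same pattern with a smaller step. In normalised read counts it had 2638, 1077 and 1918 in prepupae titled LacZ, 1526, 1671 and 1719 in those titled mitf and 413, 387 and 373 in larvae. The prepupa groups overlapped each other and were both above all larval libraries. Against larvae the difference was 2.17 ± 0.26 for prepupae titled LacZ (4.80-fold, adjusted p = 2.92e-05) and 2.06 ± 0.26 for those titled mitf (4.19-fold, adjusted p = 5.65e-05). Between the prepupa groups it was 0.10 ± 0.26 (95% interval -0.48 to 0.69, adjusted p = 0.732), and -0.10 with trimmed mean scaling.

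Atg13, the regulatory subunit that TOR and Atg1 phosphorylate (3R:8349815-8352817, plus strand, FBgn0261108), was lower in prepupae titled LacZ than in both other groups. The value of Atg13 was 207, 168 and 181 in prepupae titled LacZ, 599, 567 and 581 in those titled mitf and 697, 625 and 392 in larvae. The libraries titled LacZ were below all others, and those titled mitf lay within the larval range. The difference was -1.65 ± 0.19 for titled LacZ minus titled mitf (adjusted p = 3.14e-05) and -1.58 ± 0.19 for titled LacZ minus larvae (adjusted p = 3.58e-05). Titled mitf minus larvae was 0.07 ± 0.19 (95% interval -0.37 to 0.51, adjusted p = 0.782), and -0.0056 with trimmed mean scaling.

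Atg101, which in mammals binds and stabilises Atg13 (X:18791668-18793517, plus strand, FBgn0030960), was higher in prepupae titled LacZ, the libraries with high Mitf, than in both other groups. The normalised read count of Atg101 was 521, 795 and 628 in prepupae titled LacZ, 173, 212 and 188 in those titled mitf and 133, 172 and 159 in larvae. All libraries titled LacZ lay above the rest, and the lowest library titled mitf and the highest larval one were nearly equal. Atg101 was 3.39-fold higher in prepupae titled LacZ than in those titled mitf (log2 1.74 ± 0.17, adjusted p = 8.65e-06) and 4.19-fold higher than in larvae (2.05 ± 0.17, adjusted p = 2.08e-06). Titled mitf minus larvae was 0.30 ± 0.17 (95% interval -0.08 to 0.69, adjusted p = 0.148). The gene lies wholly inside S6KL, on the same strand and with 0 shared exonic bases. S6KL, a kinase gene, averaged 1254 in prepupae titled LacZ, 194 in those titled mitf and 177 in larvae, with a difference of 2.68 between the prepupa groups. Whether reads of S6KL were counted for Atg101 was not tested.

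Of the kinase core, Pi3K59F, the catalytic subunit (2R:23560492-23564045, plus strand, FBgn0015277), was highest in prepupae titled mitf. Libraries had normalised read counts of 123, 149 and 94.1 in prepupae titled LacZ, 278, 270.2 and 243 in those titled mitf and 165, 143 and 110.4 in larvae. The libraries titled mitf were above all others, and the other two groups overlapped. Titled LacZ minus titled mitf was -1.13 ± 0.20 (adjusted p = 0.000602), and titled mitf minus larvae was 0.93 ± 0.20 (1.89-fold, adjusted p = 0.00231). Titled LacZ minus larvae was -0.20 ± 0.20 (95% interval -0.65 to 0.26, adjusted p = 0.388), and 0.29 with library totals.

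Vps15, the protein kinase-like subunit that holds and regulates the lipid kinase (3R:9240757-9245869, minus strand, FBgn0260935), was higher in each prepupa group than in larvae and higher again in prepupae titled LacZ. The normalised read count of Vps15 was 1378, 800.1 and 1373 in prepupae titled LacZ, 454, 401 and 484 in those titled mitf and 177, 161 and 180.0 in larvae. No 2 groups overlapped. The difference was 1.37 ± 0.20 for titled LacZ minus titled mitf (2.65-fold, adjusted p = 0.000137), 2.73 ± 0.20 for titled LacZ minus larvae (6.85-fold, adjusted p = 6.47e-07) and 1.36 ± 0.20 for titled mitf minus larvae (2.58-fold, adjusted p = 0.000156).

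Atg6, the fly Beclin 1 and the subunit to which Atg14 or Uvrag binds (3R:24049180-24050782, minus strand, FBgn0264325), took the same order in smaller steps. Values of Atg6 were 268, 321 and 299 in prepupae titled LacZ, 233, 245 and 247 in those titled mitf and 127, 122 and 114 in larvae. The prepupa groups lay close together without overlap, and both were above the larvae. Atg6 was higher than in larvae by 1.28 ± 0.12 in prepupae titled LacZ (adjusted p = 3.79e-06) and by 0.99 ± 0.12 in those titled mitf (adjusted p = 3.53e-05). Titled LacZ minus titled mitf was 0.29 ± 0.12 (adjusted p = 0.0491), a call at the edge of the threshold. It was lost without replicate 2 or 3 titled LacZ, any 1 library titled mitf, or larval replicate 1 or 2, and the difference ran from 0.23 to 0.36 over all libraries left out in turn.

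Among the partners of the lipid kinase, Atg14 (3R:29116391-29118390, plus strand, FBgn0039636) was the member with the largest difference between the prepupa groups. In mammals and yeast it is the subunit that brings the lipid kinase to sites of autophagosome formation. Its normalised read count was 4111, 5216 and 4787 in prepupae titled LacZ, 287, 234 and 317 in those titled mitf and 215, 227 and 259.6 in larvae. The lowest library titled LacZ was 13.0 times the highest titled mitf, and the libraries titled mitf overlapped the larvae. Atg14 was 16.8-fold higher in prepupae titled LacZ than in those titled mitf (log2 4.07 ± 0.14, 95% interval 3.76 to 4.39, adjusted p = 4.96e-09), and 7.61% of all genes tested had a larger difference. It was 20.1-fold higher in prepupae titled LacZ than in larvae (4.32 ± 0.14, adjusted p = 2.5e-09), where 9.02% of genes had a larger one. Titled mitf minus larvae was 0.25 ± 0.14 (95% interval -0.07 to 0.56, adjusted p = 0.146), and was called at 0.37 (adjusted p = 0.0417) without replicate 2 titled mitf.

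Uvrag, which in mammals carries the kinase to endosomes (2L:13286777-13289556, plus strand, FBgn0032499), varied least of all members, with 1.95 times between its highest and lowest library against 24.3 times for Atg14. Normalised read counts of Uvrag were 232, 251 and 218 in prepupae titled LacZ, 271, 313 and 300.5 in those titled mitf and 167, 160.4 and 167 in larvae. The 3 groups did not overlap. Uvrag was higher than in larvae by 0.50 ± 0.11 in prepupae titled LacZ (adjusted p = 0.00244, lost at 0.21 with trimmed mean scaling) and by 0.83 ± 0.11 in those titled mitf (adjusted p = 9.86e-05). Titled LacZ minus titled mitf was -0.34 ± 0.11 (adjusted p = 0.0224), but 0.10 (adjusted p = 0.568) with library totals, and the call was lost without replicate 1 or 3 titled LacZ or replicate 2 or 3 titled mitf. Over all libraries left out in turn it ran from -0.39 to -0.29. Uvrag shares 600 exonic bases with an antisense gene, asRNA:CR44972. The kit was stranded, but whether the counting kept reads of this RNA apart from those of Uvrag is not given.

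Rubicon, an inhibitor of the Uvrag-bound lipid kinase in mammals (X:8677063-8680912, plus strand, FBgn0030055), had the largest difference in the opposite direction. Its normalised read count was 87.9, 74.7 and 85.4 in prepupae titled LacZ, 1334, 1084 and 1299 in those titled mitf and 143, 129.7 and 129.5 in larvae. The libraries titled mitf stood far above both other groups, and those titled LacZ lay below all larvae. Titled LacZ minus titled mitf was -3.89 ± 0.13 (95% interval -4.17 to -3.60, adjusted p = 3.52e-09), so that Rubicon was 15.0-fold higher in the libraries titled mitf. Titled mitf minus larvae was 3.19 ± 0.13 (9.24-fold, adjusted p = 1.67e-08), and 7.61% of all genes tested had a larger difference. Titled LacZ minus larvae was -0.69 ± 0.13 (adjusted p = 0.000584), a call that was lost with library totals (-0.21, adjusted p = 0.169).

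**Figure D2:**
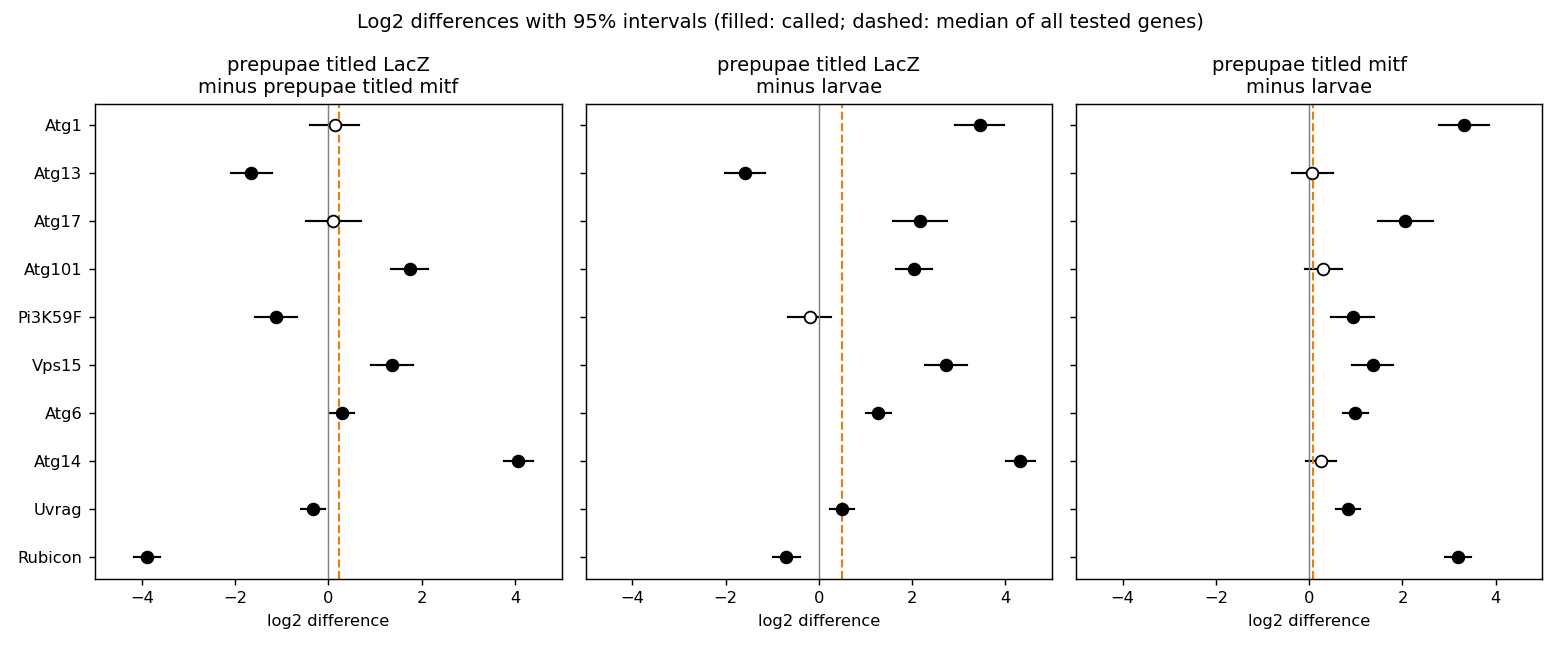
Difference of each member on the log2(value + 1) scale in the 3 comparisons (titled LacZ minus titled mitf, titled LacZ minus larvae, titled mitf minus larvae), with 95% intervals from limma; filled points passed the test, and the dashed line is the median of all genes tested. Between the prepupa groups the members run from -3.89 (Rubicon) to 4.07 (Atg14) and the intervals of Atg1 (0.13) and Atg17 (0.10) include 0.

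By complex, the Atg1 complex had 1 member higher, 1 lower and 2 not called in prepupae titled LacZ against those titled mitf. The kinase core had 2 higher and 1 lower, and the 3 partners had 1 higher and 2 lower. In this comparison 41.1% of all genes were called higher and 31.6% lower. Against larvae, prepupae titled LacZ had 3 of the 4 Atg1 complex members higher and 1 lower, 2 of 3 core members higher, and 2 of 3 partners higher with 1 lower. In prepupae titled mitf, 2 of the 4 Atg1 complex members, all 3 core members and 2 of 3 partners were higher than in larvae. Against larvae, 46.3% of all genes were called higher and 32.2% lower for titled LacZ, and 34.8% and 31.7% for titled mitf. The libraries of both groups did not overlap for 8 members in titled LacZ against titled mitf (76.1% of all genes tested), for 9 in titled LacZ against larvae (79.9%) and for 8 in titled mitf against larvae (71.1%).

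Ratios of 2 transcripts within a library do not depend on how libraries are scaled, and they compare the transcript levels of members of 1 complex between the groups. For Atg13 over Atg1, the ratio of normalised read counts was 0.0638, 0.107 and 0.0639 in prepupae titled LacZ, 0.275, 0.246 and 0.267 in those titled mitf and 2.87, 2.64 and 2.06 in larvae. The ratio was highest in larvae and lowest in prepupae titled LacZ, and the 3 groups did not overlap. The larval ratio was 9.53 times that of prepupae titled mitf and 33.0 times that of those titled LacZ. For Atg17 over Atg1, the ratio was 0.812, 0.688 and 0.676 in prepupae titled LacZ, 0.700, 0.725 and 0.790 in those titled mitf and 1.70, 1.64 and 1.96 in larvae. The prepupa groups overlapped (log2 difference -0.03, exact two-sided permutation test, p = 0.7), and both lay below all larvae. For Atg101 over Atg1, it was 0.160, 0.508 and 0.221 in prepupae titled LacZ, 0.0792, 0.0919 and 0.0866 in those titled mitf and 0.548, 0.727 and 0.839 in larvae.

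The balance among the partners of the lipid kinase differed between the groups. Atg14 over Uvrag was 17.7, 20.8 and 22.0 in prepupae titled LacZ, 1.06, 0.746 and 1.06 in those titled mitf and 1.28, 1.41 and 1.56 in larvae. Libraries titled LacZ had 21.3 times the ratio of those titled mitf and 14.2 times that of larvae. Rubicon over Uvrag was 0.379, 0.298 and 0.392 in prepupae titled LacZ, 4.92, 3.46 and 4.32 in those titled mitf and 0.857, 0.809 and 0.776 in larvae. The libraries titled mitf were above all larvae, and those titled LacZ were below them. Rubicon over Atg14 was 0.0214, 0.0143 and 0.0178 in prepupae titled LacZ, 4.65, 4.64 and 4.09 in those titled mitf and 0.667, 0.572 and 0.499 in larvae. Between the prepupa groups this ratio differed by 252.9 times, the widest of the 12 ratios.

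Within the core, the regulatory subunits were highest relative to the catalytic one in prepupae titled LacZ. Vps15 over Pi3K59F was 11.2, 5.36 and 14.6 in prepupae titled LacZ, 1.64, 1.48 and 1.99 in those titled mitf and 1.07, 1.12 and 1.63 in larvae. The libraries titled LacZ were above all others, and the other two groups overlapped. Atg6 over Pi3K59F was 2.18, 2.15 and 3.18 in prepupae titled LacZ, 0.839, 0.908 and 1.02 in those titled mitf and 0.772, 0.851 and 1.03 in larvae, with the same arrangement. In all, 12 ratios gave 36 comparisons, and groups were apart in 32 of them: 11 for titled LacZ against titled mitf, 12 for titled LacZ against larvae and 9 for titled mitf against larvae. Levels of single genes were apart for 76.1%, 79.9% and 71.1% of all genes tested, in the same order. How often ratios of other gene pairs were apart was not tested. With 3 libraries against 3 the exact permutation test cannot go below p = 0.1 (0.1125 after Benjamini-Hochberg adjustment over the 36), so none of these comparisons could pass 0.05.

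**Figure D3:**
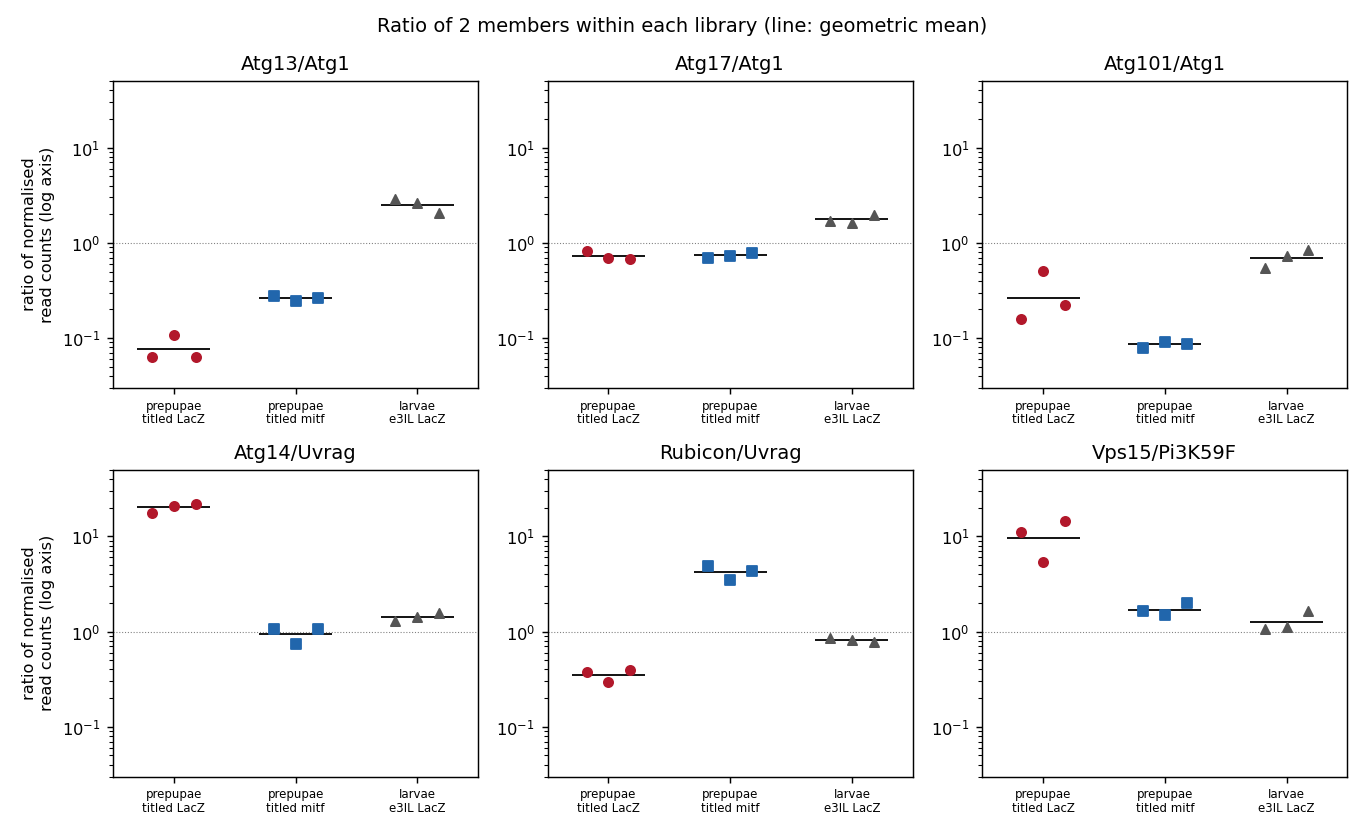
Ratios of 2 members' normalised read counts within each library (log axis), 1 point per library in prepupae titled LacZ, prepupae titled mitf and larvae, with a bar at the geometric mean and a dotted line at 1. Atg14 over Uvrag is 17.7 to 22.0 in libraries titled LacZ and at most 1.56 elsewhere, and Rubicon over Uvrag is 3.46 to 4.92 in libraries titled mitf and below 1 elsewhere.

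Levels of different genes were compared per kb of annotated exon, of which the members have 1493 to 6303 bases. In prepupae titled LacZ, Atg14 was the most abundant member (2521 ± 299 per kb, SD, n = 3). It was followed by Atg1 (615 ± 212), Atg101 (350.2 ± 74.6), Atg17 (298 ± 124), Vps15 (261 ± 73.1) and Atg6 (198 ± 17.7), each of which overlapped its neighbour in that order. Uvrag (92.6 ± 6.66), Atg13 (61.8 ± 6.69), Pi3K59F (38.6 ± 8.71) and Rubicon (25.2 ± 2.13) came last, with no overlap between neighbours.

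In prepupae titled mitf, Atg1 led (535 ± 17.6 per kb, SD, n = 3), then Rubicon (378 ± 41.2), Atg17 (259.9 ± 16.0), Atg13 (194 ± 5.40) and Atg6 (162 ± 5.14), all apart. Atg6 overlapped Atg14 (149.7 ± 22.7), and Uvrag (117 ± 8.56), Atg101 (103 ± 10.7) and Vps15 (98.3 ± 9.23) formed a chain of overlapping neighbours above Pi3K59F (83.3 ± 5.79). In larvae, the range was narrow: Atg13 (190.2 ± 53.1) and Atg14 (125 ± 12.5) overlapped at the top, followed by Atg101 (83.7 ± 10.8) and Atg6 (81.2 ± 4.43). Uvrag (65.4 ± 1.54) and Atg17 (62.0 ± 3.27) came next, and Atg1 (53.8 ± 6.97), Pi3K59F (44.1 ± 8.68), Rubicon (40.9 ± 2.39) and Vps15 (38.0 ± 2.27) overlapped at the bottom. By mean level per kb, Atg1 ranked 2 of 10 in prepupae titled LacZ, 1 in those titled mitf and 7 in larvae. Rubicon ranked 10 in prepupae titled LacZ, 2 in those titled mitf and 9 in larvae.

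**Figure D4:**
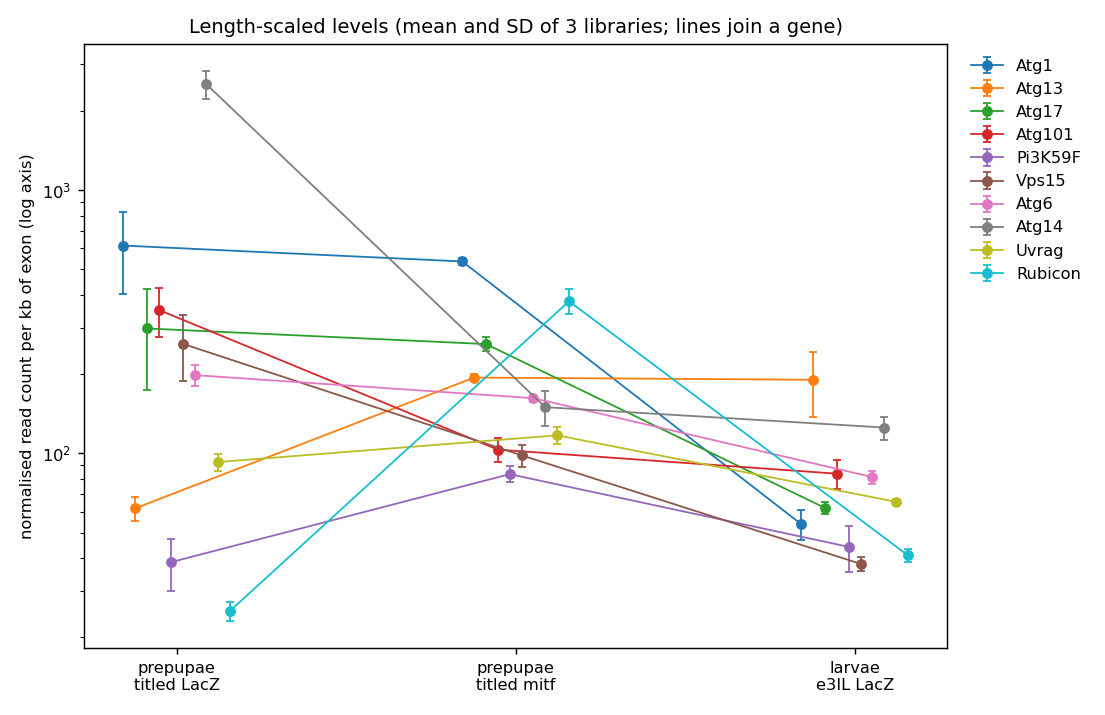
Mean normalised read count per kb of exon of each member (log axis) in prepupae titled LacZ, prepupae titled mitf and larvae, with bars for the SD of 3 libraries and lines joining the values of 1 gene. Atg14 stands at the top in prepupae titled LacZ (2521) and in mid-range in those titled mitf (149.7), while Rubicon stands at the bottom in prepupae titled LacZ (25.2) and next to the top in those titled mitf (378).

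The libraries titled LacZ differed among themselves more than those of the other groups for some members. The distance of a library from the mean of the rest of its group had medians over all genes on the log2 scale. In replicates 1, 2 and 3 these were 0.25, 0.33 and 0.20 in titled LacZ, 0.16, 0.17 and 0.18 in titled mitf and 0.21, 0.14 and 0.23 in larvae. Over the members they were 0.26, 0.35 and 0.11, 0.10, 0.11 and 0.08, and 0.16, 0.08 and 0.11, in that order. The coefficient of variation of Atg1 was 34.5% in prepupae titled LacZ, 3.29% in those titled mitf and 13.0% in larvae, and that of Atg17 was 41.6%, 6.14% and 5.28% in these groups. Replicate 2, which had the highest Mitf value (1.70 times the mean of replicates 1 and 3), was lower for Atg17 (0.473 times), Atg1 (0.514 times) and Vps15 (0.582 times). In the same library Atg101 and Pi3K59F were higher (both 1.38 times), as were Atg14 (1.17 times), Atg6 (1.13 times) and Uvrag (1.12 times), while Atg13 (0.863 times) and Rubicon (0.862 times) were lower. Replicate 2 was the highest of its group for 5 members and the lowest for 5, and over all genes tested it was the highest for 41.8% and the lowest for 37.2%. Without it, titled LacZ minus titled mitf became 0.45 for Atg1 (adjusted p = 0.0079) and 0.46 for Atg17 (adjusted p = 0.0121), both then called higher. Without replicate 1 titled LacZ the same differences were -0.07 and -0.19, neither called.

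Across the 9 libraries, Atg1 and Atg17 varied together (Pearson r = 0.99 on the log2 scale), as did Atg14 and Atg101 (0.98) and Rubicon and Pi3K59F (0.91), while Atg14 and Atg13 ran opposite (-0.97). These correlations are descriptions: the 9 points fall into 3 groups and share libraries. Likeness was ranked among 4371 other genes with a mean of at least 100 and a symbol other than a CG, CR or FBgn number. Those most like Atg1 were RhoGAP15B (0.999), REPTOR-BP (0.997), the binding partner of the TOR-restrained transcription factor REPTOR, and Sdc (0.997), the fly syndecan. For Atg14 they were Vha68-2 (0.999), Ack-like (0.999) and PGRP-LD (0.999). Vha68-2, a subunit of the proton pump that acidifies lysosomes, averaged 102220 in prepupae titled LacZ, 3618 in those titled mitf and 3095 in larvae. For Rubicon the closest were Adk3 (0.998), Ccm3 (0.997) and Rpn5 (0.996), a proteasome subunit that averaged 1519.6 in prepupae titled LacZ, 7979.7 in those titled mitf and 2179.6 in larvae. For Pi3K59F they were prod (0.981), AP-2alpha (0.971), a subunit of a clathrin adaptor, and cyc (0.967), a clock gene.

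Of 42 listed genes that act after or upstream of these complexes, 39 were tested, and the other 3 were not analysed here. In prepupae titled LacZ against those titled mitf, 20 were higher, 13 lower and 6 not called, with a median of 0.37, where 41.1% of all genes tested were higher and 31.6% lower with a median of 0.22. The split was 24 and 9 with library totals and 15 and 15 with trimmed mean scaling. Against larvae, prepupae titled LacZ had 24 higher and 11 lower (median 1.31), where 46.3% of all genes were higher and 32.2% lower with a median of 0.50. That split was 27 and 7 with library totals (5512 and 2469 of 10162 over all genes). It was 22 and 13 with trimmed mean scaling (4284 and 3663 of 10138 over all genes). Prepupae titled mitf had 23 higher and 8 lower than larvae (median 0.69), where 34.8% of all genes were higher and 31.7% lower with a median of 0.08.

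AMPK and its partners act upstream of Atg1. Prepupae titled LacZ had 5 of 6 AMPK and starvation genes higher and 1 lower than prepupae titled mitf. Of all genes, 41.1% were higher and 31.6% lower in this comparison. With trimmed mean scaling 4 were higher and 1 lower, where 3776 of 10138 genes were higher and 3633 lower. AMPKalpha, the catalytic subunit of AMPK, averaged 87043 ± 13039 in prepupae titled LacZ and 1930.0 ± 119 in those titled mitf (SD, n = 3 each), a difference of 5.49 ± 0.12. Lkb1, the kinase that activates AMPK, was higher by 2.89 ± 0.27, and Sesn, the stress-induced inhibitor of TOR, was lower (-2.28 ± 0.12). All 6 were higher in prepupae titled LacZ than in larvae, where 46.3% of all genes were higher and 32.2% lower. They were led by AMPKalpha (6.42 ± 0.12), alc (4.95 ± 0.10) and SNF4Agamma (4.02 ± 0.10), the last 2 being the beta and gamma subunits of AMPK. In prepupae titled mitf 5 were higher than in larvae and 1 lower, where 34.8% of all genes were higher and 31.7% lower. The largest of these differences were those of Sesn (4.42 ± 0.12), alc (3.68 ± 0.10) and Sik3 (2.22 ± 0.08).

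The 9 TOR pathway genes gave 4 higher and 4 lower calls for titled LacZ against titled mitf, where 41.1% of all genes were higher and 31.6% lower. With library totals the split was 5 and 4 (4950 and 2335 of 10162 over all genes). With trimmed mean scaling it was 2 and 4 (3776 and 3633 of 10138 over all genes). The gene rictor, the defining subunit of TOR complex 2, was higher by 3.29 ± 0.19, S6k, a kinase downstream of TOR, by 1.65 ± 0.13, and raptor, the defining subunit of TOR complex 1, was lower (-1.62 ± 0.15). Against larvae, prepupae titled LacZ had 2 higher, rictor (3.19 ± 0.19) and the translation inhibitor Thor (3.17 ± 0.19), and 5 lower, where 46.3% of all genes were higher and 32.2% lower. The majority turned round with library totals, to 4 higher and 3 lower (5512 and 2469 of 10162 over all genes). It was 2 higher and 6 lower with trimmed mean scaling (4284 and 3663 of 10138 over all genes). Prepupae titled mitf had 3 higher and 3 lower than larvae, including Thor (2.63 ± 0.19) and S6k (-1.41 ± 0.13), where 34.8% of all genes were higher and 31.7% lower.

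Downstream, the genes that attach Atg8 to membranes divided. Among these 9, prepupae titled LacZ had 4 higher and 4 lower than prepupae titled mitf, where 41.1% of all genes were higher and 31.6% lower. With library totals the split was 4 and 3 (4950 and 2335 of 10162 over all genes). With trimmed mean scaling it was 3 and 5 (3776 and 3633 of 10138 over all genes). Atg3, the enzyme that passes Atg8 to its lipid, averaged 168 ± 27.7 in prepupae titled LacZ and 3052 ± 166 in those titled mitf (SD, n = 3 each), a difference of -4.19 ± 0.13, and Atg5, which forms a conjugate with Atg12, was also lower (-2.15 ± 0.14). Atg4b, an Atg8 protease, was higher (1.77 ± 0.15). Against larvae, prepupae titled LacZ had 5 higher and 3 lower, where 46.3% of all genes were higher and 32.2% lower. With trimmed mean scaling the split was 4 and 4 (4284 and 3663 of 10138 over all genes). Prepupae titled mitf had 6 higher and 1 lower than larvae, where 34.8% of all genes were higher and 31.7% lower. Atg7, the E1-like enzyme, was higher by 4.89 ± 0.14 in prepupae titled LacZ and by 4.22 ± 0.14 in those titled mitf.

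Of 9 genes of membrane supply and lipid binding, 5 were higher and 1 lower in titled LacZ against titled mitf, where 41.1% of all genes were higher and 31.6% lower. With library totals the split was 8 and 0 (4950 and 2335 of 10162 over all genes). With trimmed mean scaling it was 4 and 2 (3776 and 3633 of 10138 over all genes). Among these mtm, a phosphatase of the lipid that Pi3K59F makes, was higher by 2.31 ± 0.10, Tango5, the fly VMP1, by 2.27 ± 0.10 and stas, the fly TMEM41B, by 1.84 ± 0.16. Against larvae, prepupae titled LacZ had 8 higher and 1 lower, where 46.3% of all genes were higher and 32.2% lower. Those titled mitf had 6 higher and 2 lower, where 34.8% of all genes were higher and 31.7% lower. Atg18b, a reader of the same lipid, was higher than in larvae by 5.82 ± 0.19 in prepupae titled LacZ and by 5.66 ± 0.19 in those titled mitf. Of the 2 cargo genes, ref(2)P, the fly p62, was lower in prepupae titled LacZ than in those titled mitf (-2.12 ± 0.50, and -1.40 without replicate 2 titled LacZ), and bchs was higher (0.99 ± 0.29). Of 4 Bcl-2 proteins and other partners of the complexes, Debcl, a Bcl-2 family member, was higher (1.35 ± 0.16), Buffy (-0.90 ± 0.31) and EndoA (-0.30 ± 0.10) were lower, with calls that were lost for Buffy with library totals (-0.53) and for both when some single libraries were left out, while EndoA turned to 0.13 with library totals.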

How the data were processed

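Fat body RNA of 3 groups with 3 libraries each was sequenced with a stranded mRNA kit, per the labels' protocols. Per the submitters' processing notes, bcl2fastq, Salmon 1.5.2 and DESeq2 were used with the build BDGP6. The role of each and the strand setting of the counting are not given in the sources used here. The deposited values are a normalised signal, 1 per gene and library. Median ratios to the geometric mean of a gene were equal in the 9 libraries (0.9926, over 7791 genes never at 0), as scaling by a median of ratios leaves them. Of the low values, 69.5% to 75.9% were within 0.05 of a multiple, up to 10, of the value of 1 read, too few to recover reads, so no count test was run. The depth estimated from that step is 18500000 to 29100000 reads.

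Genes that reached 1 in 3 or more libraries were tested with limma 3.58.1 (R 4.3.3) on log2(value + 1) with a mean-variance trend. A count test had been planned for the case that the files held counts. All tests were two-sided, with 1 fit of 9 libraries. Fold changes on this scale understate the change of low genes. Groups follow sample titles. The labels do not say whether replicates came from separate crosses, so p-values may measure technical spread. Symbols, positions and exon lengths come from the Ensembl release 115 annotation of BDGP6, which named 10189 of 10242 genes. The members, lists and naming rule were chosen with earlier results of these data known. From each further list, up to 3 called genes with the largest differences were named. For 4 members the 3 genes most like them were named, leaving out genes known only by a CG, CR or FBgn number. Alternatives were library totals, trimmed mean scaling, pseudocounts of 0.1 and 5, no filter or a minimum of 10, a replicate block, fits of 2 groups and leaving out each library. The procedure was tested on simulated data.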

Additional observations from a re-analysis of the deposited data

Results flagged for a closer look

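Rubicon differed from larvae in opposite directions in the 2 prepupa groups. It was lower in prepupae titled LacZ (-0.69 ± 0.13) and higher in prepupae titled mitf (3.19 ± 0.13), with all 3 libraries of each prepupa group on its own side of all larvae. The test of the difference itself, which is titled LacZ minus titled mitf, gave -3.89 ± 0.13 (limma, Benjamini-Hochberg adjusted p = 3.52e-09). The 2 comparisons share the larvae, and with library totals the first of them was -0.21 and not called.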

How the results depend on the processing

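The count of members called kept within 1.5 times of the values reported under every alternative run: 6 to 9 in titled LacZ against titled mitf, 9 to 9 in titled LacZ against larvae and 7 to 8 in titled mitf against larvae when each library was left out. Over all genes those ranges were 6609 to 7411, 7342 to 7915 and 6363 to 6938. The differences that changed sign were between -0.34 and 0.13 as reported. With library totals, titled LacZ minus titled mitf became 0.10 for Uvrag and 0.13 for EndoA, and titled LacZ minus larvae 0.29 for Pi3K59F. Trimmed mean scaling gave -0.075 for Atg1 and -0.10 for Atg17 in titled LacZ minus titled mitf, and -0.0056 for Atg13 in titled mitf minus larvae. Over the libraries left out in turn, titled LacZ minus titled mitf ran from -0.075 to 0.45 for Atg1 and from -0.19 to 0.46 for Atg17, and titled mitf minus larvae from -0.18 to 0.23 for Atg13. Atg6 in titled LacZ minus titled mitf was also not called with trimmed mean scaling (0.08), a pseudocount of 5 (adjusted p = 0.0506) or a fit of the 2 prepupa groups alone (adjusted p = 0.0605). The cause was not tested. Neither the labels nor the data gave a pairing by replicate number that met the criterion set for it: deviations of same-numbered libraries correlated at -0.07 to 0.09, in 0 of 9 pairs above 0.1. In 11 of 18 cases a library correlated best with its own number in another group, a hint from the data and not from the design. A replicate block left 7, 9 and 7 members called, with Atg6 lost in titled LacZ minus titled mitf (adjusted p = 0.0822). Between the prepupa groups the 95% intervals of Atg1 (-0.39 to 0.66) and Atg17 (-0.48 to 0.69) include 0, and these bounds are the sizes that 3 libraries a group leave possible in the fit as reported.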

Other observations

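Some members lie close to other genes, whose transcripts did not always move as the member did. Pisd, which makes phosphatidylethanolamine, the lipid to which Atg8 is attached, starts 1 base from Atg6 on the opposite strand. It averaged 2063 in prepupae titled LacZ, 1256 in those titled mitf and 4466 in larvae, and was lower than in larvae on the log2 scale in prepupae titled LacZ (-1.11) and in those titled mitf (-1.83), where Atg6 was higher. CG8420 starts 780 bases from Vps15 and differed in the same direction as Vps15 in all 3 comparisons (5.10, 7.24 and 2.14 for titled LacZ minus titled mitf, titled LacZ minus larvae and titled mitf minus larvae). It averaged 197 in prepupae titled LacZ, but only 4.80 in those titled mitf and 0.41 in larvae. The sizes of these differences therefore depend on the 1 added to each value. Xe7, which starts 379 bases from Atg17, differed by -1.72, -1.24 and 0.49 in the same comparisons. The differences of Sap130, 786 bases from Atg1, were -1.24, -0.94 and 0.30, the last not called (limma, adjusted p = 0.0587). Pi3K59F shares 73 exonic bases on the same strand with CG30184, which averaged 7.82 in prepupae titled LacZ and was at 0 in both other groups. Atg14 shares 61 exonic bases with yem on the opposite strand. Titled LacZ minus titled mitf was 0.34 for yem and not called (limma, adjusted p = 0.0999), against 4.07 for Atg14. The largest exonic overlap is that of Uvrag with asRNA:CR44972 on the opposite strand, 600 bases. The antisense gene was not analysed here. Although the kit was stranded, whether the counting kept reads of Uvrag and of this RNA apart is not given.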
